A study of Mus musculus with 2 samples.

Results

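Mir126a, Mir221 and Mir222 are 3 miRNA genes known from the endothelium, the cell layer that lines blood vessels. They were taken by gene symbol from a table of 1973 mouse miRNA genes, and all 3 were found in it. The tissue was the facial prominence of B6NCrl mouse embryos at embryonic day 10.5, healthy, with no allele or treatment named in the labels. Prominences of 69 embryos were pooled for replicate 1 and of 51 embryos for replicate 2, each pool of mixed sex. The series is this 1 group of 2 libraries, so no condition is compared, and the comparisons are between genes and between the 2 pools. The labels call the libraries biological replicates and give the same donor code for both, so the spread between them is that of 2 pools of embryos.

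A miRNA is cut from a hairpin in a longer transcript and guides silencing of messenger RNAs that pair with its seed, the bases from position 2 to position 8 of the mature strand. Mir126a lies within Egfl7, a gene of endothelial cells, and in mouse and zebrafish its product maintains vessel integrity by lowering Spred1 and Pik3r2, which restrain VEGF signalling. Mir221 and Mir222 are neighbours known in human to come from a common transcript. In human endothelial cells their products lower the receptor KIT, and in human tumour cells they lower the cell cycle inhibitor CDKN1B, and the pair is expressed in many cell types besides endothelium. The facial prominences at this stage are mesenchyme covered by epithelium, with vessels and blood cells inside.

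The mature strands are shown because the seed sets the difference between the 2 kinds of member. Sequences are from RefSeq (GRCm38.p6), 5′ to 3′, with the seed in capitals.
miR-126a-3p: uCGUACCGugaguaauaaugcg
miR-221-3p: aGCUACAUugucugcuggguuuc
miR-222-3p: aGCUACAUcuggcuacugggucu
miR-221-5p: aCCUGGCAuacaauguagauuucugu
The 3p strands of Mir221 and Mir222 are alike over their first 8 bases, which hold the whole seed, and at 11 of 23 positions in all. Their longest shared stretch is those 8 bases, so reads of the 2 genes differ in sequence. No other mature strand in the RefSeq table has the seed of miR-126a-3p. The seed of miR-221-3p and miR-222-3p occurs in 1 further strand, that of Mir1928 on chromosome 1, which had no count in either library. A count of 0 allows up to 1.05 CPM (counts per 1000000 gene counts) in replicate 1 and 0.853 CPM in replicate 2, taking 3 counts as the limit.

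The hairpins are shown with the mature strands that the RefSeq table lists for them in capitals.
Mir126a, chr2:26591357-26591429, plus strand: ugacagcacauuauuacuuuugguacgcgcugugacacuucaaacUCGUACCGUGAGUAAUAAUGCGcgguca
Mir221, chrX:19146294-19146388, minus strand: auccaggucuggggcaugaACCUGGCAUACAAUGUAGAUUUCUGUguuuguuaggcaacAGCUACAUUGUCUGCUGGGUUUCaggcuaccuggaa
Mir222, chrX:19146893-19146971, minus strand: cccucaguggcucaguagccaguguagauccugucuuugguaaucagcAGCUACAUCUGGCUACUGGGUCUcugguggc
The Mir126a hairpin is 73 bases long, that of Mir221 95 bases and that of Mir222 79 bases. Their computed minimum free energies were -31.2, -42.8 and -40.7 kcal/mol, in the same order. In GENCODE M21 (GRCm38, the build mm10 of the counts), Mir126a (ENSMUSG00000065540.1) lies on the strand of Egfl7, in an intron of each annotated Egfl7 transcript that spans it except 1. In the transcript Egfl7-201 it is intron 7 of a coding transcript with 10 exons. The exception is annotated as a retained intron, and the hairpin lies in its exon. An intron of a transcript of Gm20532 on the same strand covers it as well. Mir221 (ENSMUSG00000065422.1) and Mir222 (ENSMUSG00000065471.1) are 504 bases apart, and no annotated gene covers them. The nearest non-miRNA gene, Gm14636, lies 10010 bases from Mir222 on the same strand. None of the 3 hairpins shares a 20-base stretch with another miRNA gene in the table, where 923 of 1894 genes with a sequence did.

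Seed matches in messenger RNAs give the reach of each seed in the mouse transcriptome and involve no count from these libraries. Over the longest annotated 3′ UTR of each of 20848 coding genes, the match to bases 2 to 8 of miR-126a-3p (CGGTACG) was present in 33 genes (0.158%). The match of miR-221-3p and miR-222-3p (ATGTAGC) was present in 1989 genes (9.54%). Only the transcript strand was searched. The letters of the first hold the pair CG at 2 places, and those of the second hold none. Sites are shown in genes known as targets, with the match in capitals.
Spred1, chromosome 2, miR-126a-3p, bases 2 to 7: ttaactaaatgtaaGGTACGa
Cdkn1b, chromosome 6, miR-221-3p, bases 2 to 8: tctaaaagcattggATGTAGCa
Cdkn1c, chromosome 7, miR-221-3p, bases 2 to 8: gggacctttcgttcATGTAGCa
Kit, chromosome 5, miR-221-3p, bases 2 to 8, first match: atgatgggagatatATGTAGCa
Kit, chromosome 5, miR-221-3p, bases 2 to 8, second match: ttgtaaatattgaaATGTAGCa
Spred1, an inhibitor of Ras signalling, held no match to bases 2 to 8 of miR-126a-3p and 1 match to bases 2 to 7 (GGTACG), which 10.5% of 3′ UTRs of like length (within 10%) also held. Pik3r2, a subunit of phosphoinositide 3-kinase, and Vcam1, an adhesion molecule of activated endothelium, held neither match in the UTR searched. Cdkn1b, an inhibitor of cyclin-dependent kinases, held 1 match to bases 2 to 8 of miR-221-3p, against 23.1% of UTRs of like length with at least 1. Cdkn1c, a related inhibitor, held 1, against 4.88%. Kit, the receptor for stem cell factor, held 2, against 15.0% with at least 1. A match describes these letters in this window and no messenger RNA was measured here.

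The libraries held 2853511 (replicate 1) and 3517226 (replicate 2) counts on the strand of a miRNA gene, out of 6828248 and 8643947 reads. Of the 1973 genes, 376 had at least 10 counts in each library, called detected here. All 3 members were detected, against a background of 19.1% over all genes. All 5 mesenchyme genes of a fixed list and all 7 epithelium genes were detected. This is no check of the tissue, because the lists were written with earlier results of these data known. All 19 matched genes of the endothelium and angiogenesis list were detected too.

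Mir126a was among the miRNA genes with the most counted reads in the facial prominence, and Mir221 and Mir222 were near the median of the detected genes. Mir126a had 90290 counts in replicate 1 and 120882 in replicate 2. These are 31642 CPM (95% exact Poisson interval 31436 to 31849) and 34369 CPM (34175 to 34563). About 1 in 31.6 miRNA counts of replicate 1 and 1 in 29.1 of replicate 2 came from this gene. The mean was 33005 ± 1928 CPM (SD, n = 2), or 3.30% ± 0.193 of all gene counts. It was the fifth gene in each library and in the mean.

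Mir221 had 771 counts in replicate 1 and 854 in replicate 2. Its level was 270.2 CPM (251 to 290.0) in replicate 1 and 243 CPM (227 to 260) in replicate 2, with a mean of 256 ± 19.4 CPM (SD, n = 2). Mir221 ranked 158 in replicate 1, 165 in replicate 2 and 161 by the mean.

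Mir222 had 427 counts in replicate 1 and 560 in replicate 2. Its level was 149.6 CPM (136 to 165) in replicate 1 and 159 CPM (146 to 173) in replicate 2, with a mean of 154 ± 6.77 CPM (SD, n = 2). Mir222 ranked 196 in replicate 1, 190 in replicate 2 and 194 by the mean. The order Mir126a, Mir221, Mir222 held in both libraries, and no range of one member over the libraries overlapped that of another. The median detected gene had a mean of 164 CPM. Mir126a stood at 200.6 times that level, Mir221 at 1.56 times and Mir222 at 0.939 times. These intervals cover counting error only, since reads copied by PCR are not independent molecules. In bulk tissue, fewer cells of a type and less of the miRNA per cell cannot be told apart. Counts add both strands of a hairpin, so those of Mir126a hold miR-126a-5p with miR-126a-3p, and those of Mir222 hold miR-222-5p with miR-222-3p. Inserts were under 30 nt, so a mature miRNA gives 1 read whatever the length of its hairpin. Capture in small RNA libraries differs between sequences, so a difference between genes is a difference in reads.

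**Figure D1:**
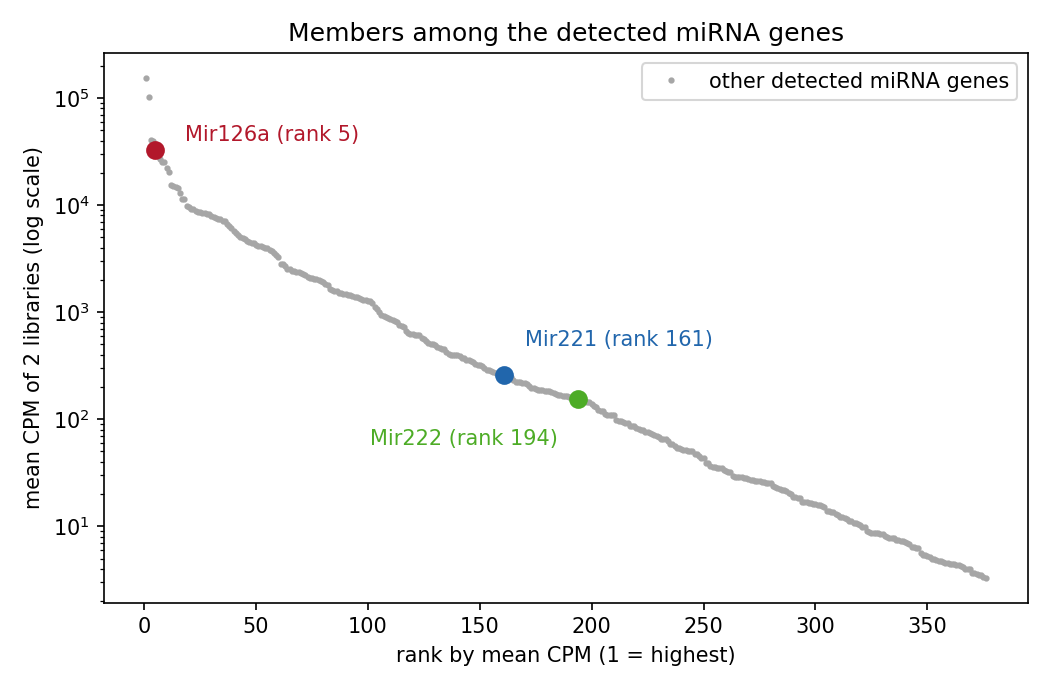
Mean CPM of the 2 libraries (log scale) against rank for the 376 detected miRNA genes, each point a gene. Mir126a sits at rank 5 near the top of the curve, while Mir221 (rank 161) and Mir222 (rank 194) lie in its middle.

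Set beside its neighbours in the order of levels, Mir126a overlapped with 1 gene only. The 2 genes above it were Mir99a, with 43118 CPM in replicate 1 and 38635 CPM in replicate 2, and Mir20a, of a miRNA cluster that promotes cell growth, with 38641 and 40967 CPM. Both were above Mir126a in each library, and their ranges did not overlap with its range. The next below was Mir130a, a miRNA reported to promote angiogenesis in human endothelial cells, with 31010 CPM in replicate 1 and 32764 CPM in replicate 2. Mir126a was above Mir130a within each library by more than counting error. The exact intervals were 31436 to 31849 CPM against 30806 to 31215 CPM in replicate 1. In replicate 2 they were 34175 to 34563 CPM against 32575 to 32954 CPM. Mir126a in replicate 1, with 31642 CPM, was below Mir130a in replicate 2, so the ranges over the libraries overlapped. Mir26b followed with 27327 and 26739 CPM, below Mir126a in both. Over the whole table, 4 genes were above Mir126a in both libraries without overlap and 1967 below.

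Mir221 and Mir222 stood in a crowded part of the order. The range of Mir221 overlapped with the ranges of 15 other genes, and that of Mir222 with 14. Next above Mir221 were Mir98, with 332 CPM in replicate 1 and 196 CPM in replicate 2, and Mir185, with 262 and 265 CPM. Next below were Mir10a, from a Hox gene cluster, with 156 and 347 CPM, and Mir451a, a red blood cell miRNA, with 359 and 143 CPM. All 4 overlapped with Mir221. Of these neighbours, Mir98, Mir10a and Mir451a differed more between the pools than Mir221 did. The neighbours of Mir222 were Mir30b and Mir3102 above it, with means of 157 and 156 CPM, and Mir495 and Mir500 below it, with 153 and 151 CPM. The range of Mir222 overlapped with those of all 4, and so did its exact intervals within each library.

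**Figure D2:**
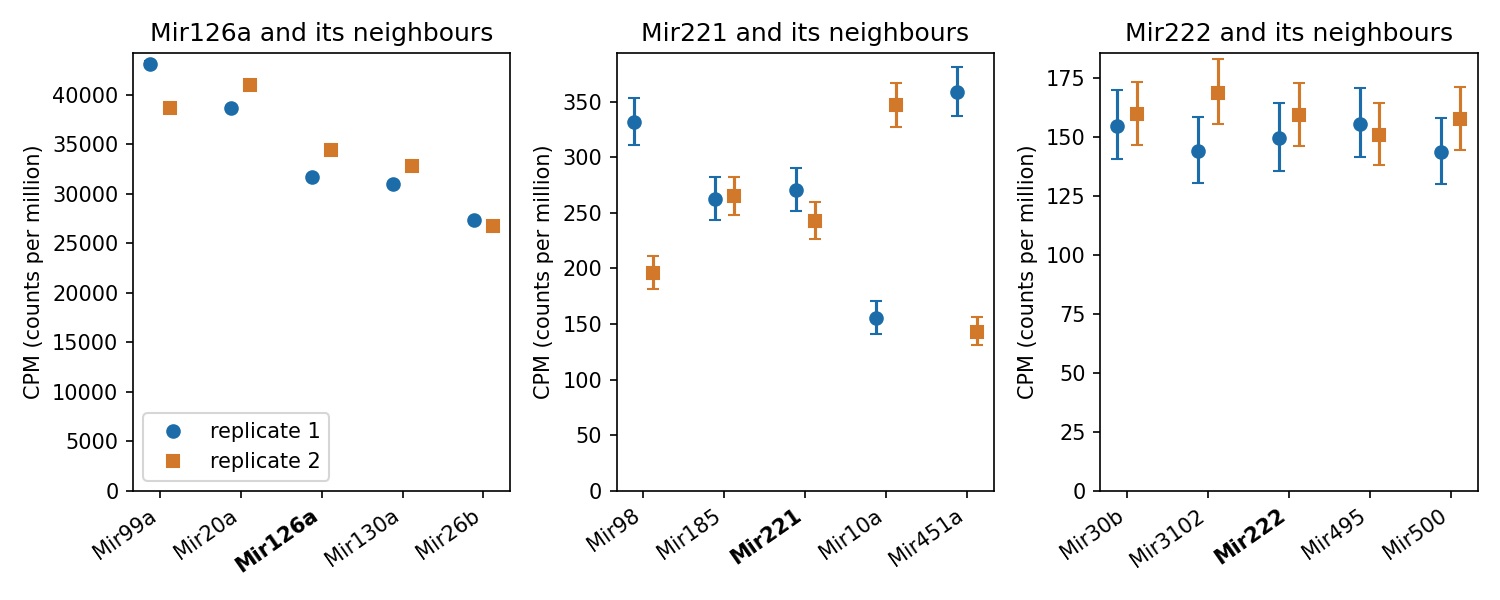
CPM of each member (bold) with the 2 genes above and the 2 below it by mean level, in replicate 1 (circles) and replicate 2 (squares), with exact 95% Poisson intervals and axes that start at 0. The ranges of Mir126a overlap only with Mir130a, whereas Mir221 and Mir222 overlap with every neighbour shown.

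Mir126a was the highest miRNA gene of chromosome 2. It held 37.0% of the counts of that chromosome's 224 genes in each library, of which 29 were detected. On chromosome X, 41 of 120 genes were detected, and Mir221 was at place 21 and Mir222 at place 25 among them. The highest X-linked gene was Mir322, with a mean of 25386 CPM. Mir221 took 0.403% of the chromosome X counts in replicate 1 and 0.337% in replicate 2, and Mir222 took 0.223% and 0.221%.

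The ratio between 2 members in the same library does not depend on how libraries are scaled. Mir126a had 117 times the counts of Mir221 in replicate 1 (95% exact interval 109 to 126) and 142 times in replicate 2 (132 to 152), intervals that do not overlap. Mir126a had 211 times the counts of Mir222 in replicate 1 (192 to 233) and 216 times in replicate 2 (199 to 235), intervals that overlap widely. On the log2 scale the mean differences were 7.01 ± 0.19 for Mir126a over Mir221 and 7.74 ± 0.02 for Mir126a over Mir222 (SD, n = 2).

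The 2 genes of the X-linked pair were within 2-fold of each other, with Mir221 the higher in both pools. Mir221 had 1.81 times the counts of Mir222 in replicate 1 (1.60 to 2.04) and 1.525 times in replicate 2 (1.37 to 1.70). The mean log2 difference was 0.73 ± 0.17 (SD, n = 2). Of the counts of the pair, 64.4% (exact Clopper-Pearson interval 61.6 to 67.1) were from Mir221 in replicate 1 and 60.4% (57.8 to 63.0) in replicate 2. Mir221 held the larger share in each library by more than counting error. The intervals of the libraries overlapped, and whether the shares differed between the libraries was not tested. Together the pair had 420 CPM in replicate 1 and 402 CPM in replicate 2, a mean of 411 ± 12.6 CPM. That sum varied less, relative to its mean, than either gene alone.

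**Figure D3:**
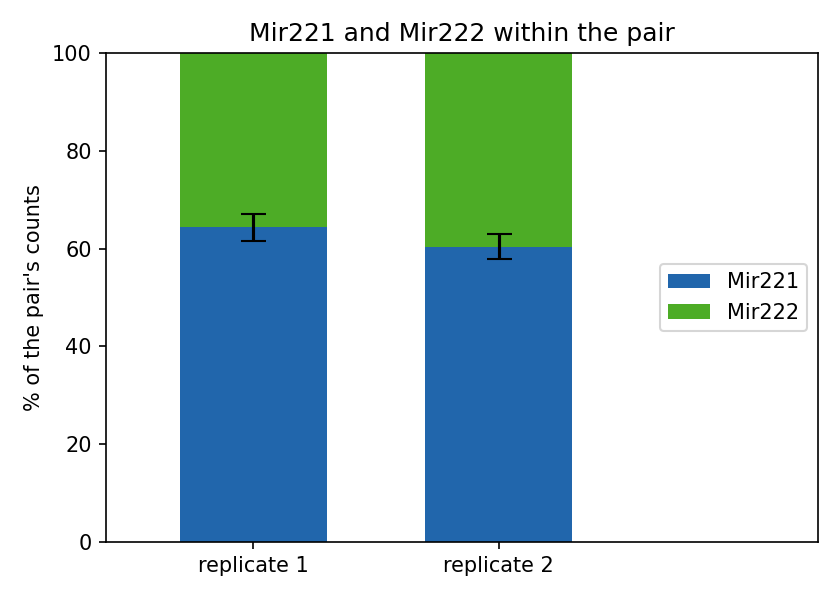
Percentage of the counts of Mir221 and Mir222 together that came from each gene, in replicate 1 and replicate 2, with exact 95% Clopper-Pearson intervals for the Mir221 share. Mir221 takes 64.4% in replicate 1 and 60.4% in replicate 2. The intervals overlap, which is no test of a difference between the libraries.

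Between the 2 pools all 3 members were close. For each of the 449 genes with 10 or more counts over both libraries, a two-sided exact binomial test asked whether its counts split between the libraries as the totals did, and p-values were adjusted over all 449 by Benjamini and Hochberg's method. This compares the 2 libraries beyond counting error, not conditions. A gene with more counts passes at a smaller ratio. Mir126a was lower in replicate 1, with a log2 ratio of replicate 1 over replicate 2 of -0.12 (95% exact interval -0.13 to -0.11) and an adjusted p of 9.0e-78 by the exact binomial test. Lower calls made up 20% of the genes tested, higher calls 20.3% and calls in either direction 40.3%. The level in replicate 1 was 0.921 times that in replicate 2 (0.913 to 0.929). Among the 320 genes averaging 10 CPM or more, 215 (67.2%) had a larger log2 ratio in either direction.

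Mir221 did not pass, with a log2 ratio of 0.15 (0.01 to 0.30) and an adjusted p of 0.075 by the exact binomial test. With libraries scaled to all reads in place of gene counts its adjusted p was 0.021 and its log2 ratio 0.19. Larger ratios were found at 186 of the 320 genes. Mir222 did not pass either, with a log2 ratio of -0.09 (-0.27 to 0.09) and an adjusted p of 0.52 by the exact binomial test, and 240 of the 320 genes had larger ratios. Its interval allows for a level in replicate 1 from 0.827 to 1.07 times that in replicate 2. The count of 1 called member of 3 stands against the background of 40.3%. Across the 320 genes the median log2 ratio was -0.02 and the SD 0.39, so every member lay within 1 SD of the median.

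**Figure D4:**
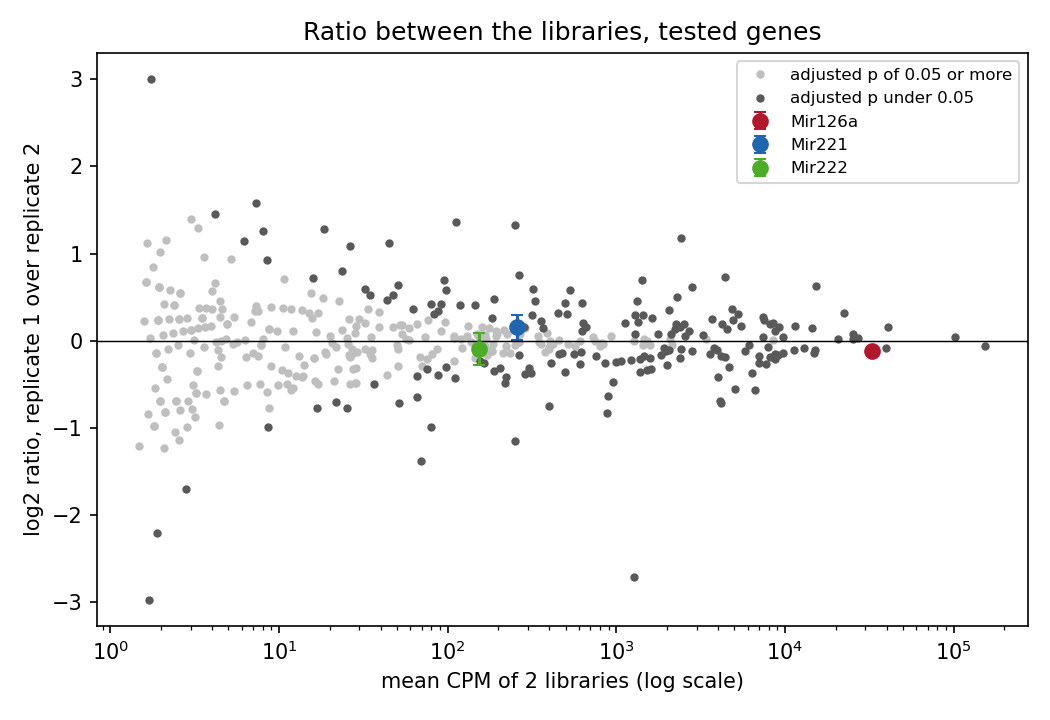
Log2 ratio of replicate 1 over replicate 2 against mean CPM (log scale) for the 449 tested genes, dark grey where the adjusted p was under 0.05. The members are in colour with exact 95% intervals: Mir126a at -0.12, Mir221 at 0.15 and Mir222 at -0.09, all close to the line at 0.

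With 2 libraries the likeness of 2 genes can only be given as likeness of this ratio, and it says little about a pattern. The 3 genes with a ratio nearest to that of Mir126a were Mir412, Mir298 and Mir22, each with a log2 ratio of -0.12. Those nearest to Mir221 were Mir34b, Mir6236 and Mir141, each at 0.16. Those nearest to Mir222 were Mir101b, Mir3066 and Mir1247, each at -0.09. Mir222 was not among the genes nearest to Mir221, nor the reverse.

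Other miRNAs known from vessels were also present, from a list of 21 genes reported in endothelium or in angiogenesis. Of these, 19 were matched in the table and all 19 were detected. The list does not hold Mir126a. Its sum was 92464 CPM for replicate 1 and 95827 CPM for replicate 2, a mean of 94145 ± 2378 CPM, set beside 33005 ± 1928 CPM for Mir126a alone. The highest were Mir130a with 31887 ± 1240 CPM, Mir322 with 25386 ± 307 CPM, and Mir92-1, of the same cluster as Mir20a, with 9697 ± 680.4 CPM. Several of the genes are widely expressed outside vessels. Without the 9 genes that hold 20 bases in common with a further miRNA gene it summed to 68749 CPM. Between the pools, 4 of the 19 were higher in replicate 1 past the test, 9 were lower and 6 did not pass, against 20.3% higher and 20% lower over all 449 genes tested. Their median log2 ratio was -0.08, beside -0.01 over all genes tested. Genes with more counts pass at smaller ratios, so the called share of a list also follows the counts of its genes.

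Genes listed for the vessel wall and for blood are given for the cells that accompany endothelium. Which cells gave the reads of these genes was not tested. In the vascular smooth muscle and pericyte list, 3 of 4 genes were detected. Their sum was 17294 CPM for replicate 1 and 14872 CPM for replicate 2, led by Mir143 with 8449 ± 846 CPM, Mir21a with 7503 ± 856 CPM and Mir145a with 132 ± 10.7 CPM. Mir143 and Mir21a were higher in replicate 1 past the test, Mir145a did not pass, and Mir145b was at 0. Over all 449 genes tested, 20.3% were higher and 20% lower, which is the background for the blood lists below as well. In the red blood cell list of 4 symbols, the 3 matched genes were detected, with a sum of 420 CPM for replicate 1 and 205 CPM for replicate 2. Mir451a had 359 CPM in replicate 1 and 143 CPM in replicate 2 and was the 1 gene of the list that passed. Mir144 had 39.2 ± 3.11 CPM and Mir486 22.5 ± 3.57 CPM. In the leukocyte and platelet list of 5 symbols, Mir142a was not matched in the table. Of the 4 matched genes, 3 were detected and none of the 3 tested passed. Their sum was 277 CPM for replicate 1 and 287 CPM for replicate 2, with Mir223 at 249 ± 5.91 CPM, Mir146 at 29.1 ± 1.94 CPM and Mir150 at 3.98 ± 0.809 CPM. Mir142b was at 0 on its own strand. The leukocyte and platelet sum was 956 CPM in the unstranded count. Capture differs between sequences, so the levels of different genes do not compare numbers of cells. Mir126a, which platelets and blood progenitors also carry, stood at 33005 CPM. The matched genes of the blood lists had sums of 312 and 282 CPM. The second of these sums lacks Mir142a. The Mir221 and Mir222 pair had 420 CPM in replicate 1, where the red blood cell sum was also 420 CPM, and 402 CPM in replicate 2, where that sum was 205 CPM. The pair was above the leukocyte and platelet sum of the gene strand in both libraries, and its mean of 411 CPM was below the unstranded mean of 956 CPM. Which cells gave the reads of the members was not tested.

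The other lists set the scale of the tissue. The mesenchyme list summed to 20293 ± 1735 CPM, led by Mir214 with 14538 ± 1041 CPM, Mir140 with 4230 ± 406 CPM and Mir199b with 1330.4 ± 295 CPM. The epithelium list summed to 26328 ± 3342 CPM, led by Mir205 with 9187 ± 709.8 CPM, Mir429 with 7419 ± 995 CPM and Mir200c with 3416 ± 35.1 CPM. As counted, Mir126a was above either sum in both libraries, while the highest gene of each list was above the Mir221 and Mir222 pair. The neural genes came to 676 ± 65.7 CPM, nearly all from Mir137 with 636 ± 62.0 CPM. Mir9-3 had 34.7 ± 8.89 CPM and Mir124a-2 had 2.80 ± 2.47 CPM. Genes of striated and cardiac muscle came to 106 ± 35.9 CPM. Mir208b led them with 69.3 ± 44.0 CPM, before Mir206, a skeletal muscle miRNA, with 18.4 ± 11.1 CPM and Mir208a, a heart miRNA, with 9.86 ± 2.54 CPM. Mir133a-1 and Mir133a-2, of heart and skeletal muscle, were at 0. Of the genes tested between the pools, 3 of 5 mesenchyme and 6 of 7 epithelium genes were higher in replicate 1 and none was lower, against the same 20.3% higher and 20% lower over all genes. In the neural list 2 of 4 were higher and 2 lower, and in the muscle list 1 of 4 was higher and 1 lower. These shares also follow the counts of the listed genes, since genes with more counts pass at smaller ratios. Reads with several placements were not counted for any gene. A stretch of 20 bases in common with a further gene was present in 3 of 5 mesenchyme genes, in 4 of 8 muscle genes and in 5 of 6 neural genes. The levels of these genes are uncertain and, with the sums that hold them, can be too low.

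**Figure D5:**
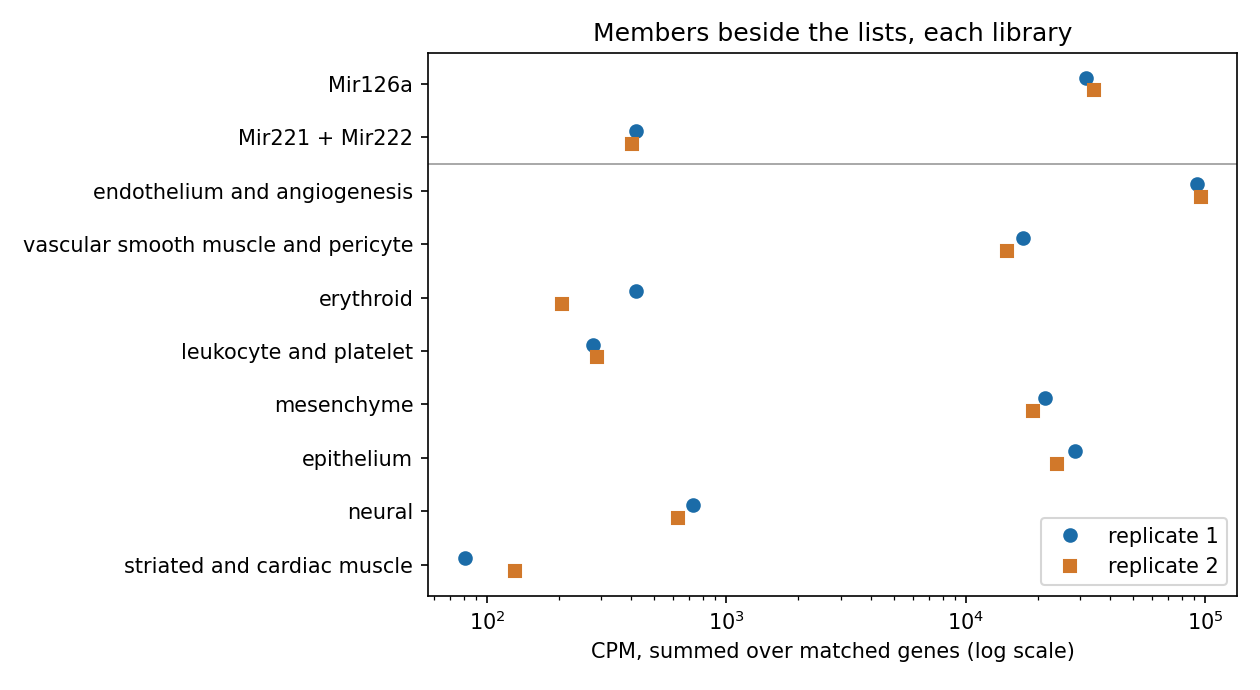
CPM in replicate 1 (circles) and replicate 2 (squares) on a log scale, for Mir126a and for Mir221 plus Mir222 (above the line) and for the sum of each list (below it). As counted, without reads of several placements, Mir126a lies above every list but that of endothelium and angiogenesis. Mir221 plus Mir222 lies at the erythroid list in replicate 1 (420 CPM each) and above it in replicate 2 (402 CPM, against 205 CPM).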

How the data were processed

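Small RNA libraries with inserts under 30 nt were made from total RNA, per the labels. The deposited files give raw counts of reads per miRNA gene on mm10 with GENCODE M4, per the text files beside the tables. The aligner is not given in the sources used here. Each table has 4 summary lines and 3 count columns, read here as either strand, the gene's strand and the opposite strand, since at each of the 1973 genes the other columns add up to either strand. Gene-strand counts were used. Summary lines name no gene and were left out: 21.6% (replicate 1) and 24.1% (replicate 2) of reads were unmapped, 27.6% and 25.9% mapped to several places and 9.01% and 9.32% lay in no gene.

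CPM used the total over all genes. Symbols came from GENCODE M21 by identifier without version (1894 of 1973 matched). Levels are mean ± SD of 2 libraries with exact 95% intervals. Ratios used a pseudocount of 0.5 CPM. Without residual degrees of freedom no edgeR or DESeq2 fit was possible, so each gene was tested by an exact binomial test (threshold 0.05). The test was also run on simulated counts that held counting error only. That run leaves out PCR copies and differences between pools, so it cannot show how the test behaves with them. Scaling alternatives used edgeR 4.0.16 (TMM) and DESeq2 1.42.0. Hairpins were folded with ViennaRNA 2.7.2; tests used scipy 1.17.1. Named genes were the members, 2 neighbours on each side in level, the 3 nearest in ratio, the 3 highest of each list, opposite-strand miRNA genes and seed sharers. Mir145b, Mir142b, Mir133a-1, Mir133a-2, Mir503 and Mir92-2 were named outside this rule, after their values were seen, and the target genes as known targets. List symbols were matched exactly or by a trailing letter. Members and lists were chosen with earlier results of these data known. Mir126b, Mir24-1, Mir142a, Mir9-1 and Mir1a-2 were not matched in the table, so no counts are given for them.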

Additional observations from a re-analysis of the deposited data

Results flagged for a closer look

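Reads on the strand opposite Mir126a appeared in both libraries, outside the counts used above: 9 counts in replicate 1 and 20 in replicate 2, more than the 3 counts that a count of 0 allows. They are 0.00997% of the reads at the locus in replicate 1 and 0.0165% in replicate 2, and 2.43% and 2.44% of all gene reads lay on the opposite strand. Of 376 detected genes, 338 had no read on the opposite strand, Mir221 and Mir222 among them, and 27 had a larger share than Mir126a. RefSeq (GRCm38.p6) places Mir126b on that strand, and its 58-base hairpin is the complement of bases 7 to 64 of the Mir126a hairpin. The RefSeq table gives its mature strands, shown with the seed in capitals because these seeds differ from that of miR-126a-3p.
miR-126b-5p: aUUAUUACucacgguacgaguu
miR-126b-3p: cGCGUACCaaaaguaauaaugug
The source of the opposite-strand reads was not tested. With 2 libraries no sample could be tested as standing apart.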

How the results depend on the processing

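Of 80 recomputed values for the members and the count of calls, 68 stayed within the spread or on the same side of the threshold, 11 moved and 1 crossed it; none changed sign. Scaled to all reads, the levels were 13604 CPM for Mir126a, 106 for Mir221 and 63.7 for Mir222, and Mir221 passed with a log2 ratio of 0.19 (its adjusted p ranged from 0.021 to 0.14). Scaled without the 10 highest genes, they were 66126, 514 and 309 CPM. With unstranded counts the ranks of Mir221 and Mir222 were 171 and 203. Per hairpin length, added afterwards, the log2 differences were 7.39 for Mir126a over Mir221, 7.85 for Mir126a over Mir222 and 0.46 for Mir221 over Mir222. Calls numbered 169 to 186 of the genes tested, against 181. Levels and the per-length values move by the construction of these scalings. The cause of the rank moves was not tested. Of 33 list sums, 29 stayed within the spread and 4 moved: 956 and 253 CPM for leukocyte and platelet (unstranded, and without genes that share 20 bases), and 68749 and 25467 CPM for endothelium and angiogenesis (without genes that share 20 bases, and without Mir130a, Mir322, Mir503, Mir92-1 and Mir92-2). The last choice was made after seeing the data and takes out the 3 highest genes of the list, so its fall follows from the choice. With 2 libraries, leaving 1 out keeps a mean within 1 SD by construction. Other settings could not move either: the pseudocount does not enter the test, and no member shares 20 bases with another gene. Levels and ranks cannot change sign. No paired analysis was possible because the series holds 1 group. Depth limits Mir222 most: its 427 and 560 counts leave a ratio anywhere from 0.827 to 1.07.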
